A study of Mus musculus with 10 samples.

Results

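Controls exposed to acute stress (AS) were compared with unstressed mice that had been through early life stress (ELS), so that a recent stressor on its own was set against an early one on its own. All animals were male C57BL/6 mice. By the study's methods they were Gprin3-BacTRAP animals of 70 to 90 days of age, in which the Gprin3 promoter drives a GFP-tagged ribosomal protein L10a in CA3 pyramidal neurons, whereas the sample records give the genotype as wild type. Controls exposed to AS were raised with a full nestlet and no wire grid, and as adults were made to swim for 6 min (water of 25°C) and were killed after 1 h of recovery. Unstressed ELS mice were raised with their dam on a wire grid with a reduced nestlet between postnatal days 2 and 12 and were left undisturbed in adulthood. The 2 other groups, shown beside them, were ELS mice exposed to AS (ELS + AS mice), which received both treatments, and unstressed controls, which received neither. Pups of every group were weaned at postnatal day 21. RNA was recovered by translating ribosome affinity purification (TRAP), which pulls tagged ribosomes out of hippocampal homogenate together with the mRNA bound to them, and the RNA of 5 to 6 mice was pooled in each library.

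The deposited table holds 1 value per gene and group on the log2 scale (the regularized logarithm, or rlog), so the comparison is a single difference per gene, with no SD, no n and no test. The sample records list 2 libraries of controls exposed to AS, 3 of unstressed ELS mice, 3 of ELS + AS mice and 2 of unstressed controls, against 3 per group in the protocol, and how libraries became a group value is not stated. The table gives no read counts, so the depth behind each value is unknown. Of 20171 genes, 14986 had a mean of at least 3 over the 4 groups and were compared. In such pooled tissue, fewer cells of a type and less RNA per cell cannot be told apart.

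Neurons that fire or receive strong signals through calcium, cAMP and MAP kinases switch on immediate early genes within minutes, first transcription factors such as Fos and Egr family members and then effectors such as Arc. These transcripts are short-lived and serve in the hippocampus as a record of recent activity. The actin cytoskeleton, with spectrins, myosins and crosslinking proteins, shapes dendritic spines and the membrane skeleton of axons. Genes of both groups stood near the ends of the comparison. Of 141 genes listed as activity-regulated, 17 were higher by over 0.5 in controls exposed to AS relative to unstressed ELS mice. Of all 14986 genes, 38 (0.254%) were. Of 183 genes listed for the actin cytoskeleton, 23 were lower by over 0.5, against 44 (0.294%) of all genes. The activity lists were chosen with earlier results of these data known. The actin lists were assembled after the values had been seen. Both counts are therefore descriptions only.

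Most genes lay close to each other in the 2 groups. The difference, controls exposed to AS minus unstressed ELS mice, had a median of 0.00 and quartiles of −0.07 and 0.07 across genes, and 9983 genes (66.6%) were within 0.1 of 0. Its SD across genes was 0.13, whereas each group stood further from unstressed controls, with an SD of 0.23 in either case. These 2 differences share the value of unstressed controls, for which 2 libraries are listed. ELS + AS mice minus unstressed controls had an SD of 0.22. Whether the value of unstressed controls was itself displaced was not tested. By sign alone, 7517 genes (50.2%) were higher and 7469 (49.8%) were lower in controls exposed to AS. Beyond 0.25, 382 genes (2.55%) were higher and 409 (2.73%) lower, and beyond 0.5, 38 genes (0.254%) were higher and 44 (0.294%) lower. Folr1 was the last gene inside the upper limit at 0.50 and Nexn the last inside the lower limit at −0.50, with Noxred1 and Sorbs2 just outside.

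**Figure D1:**
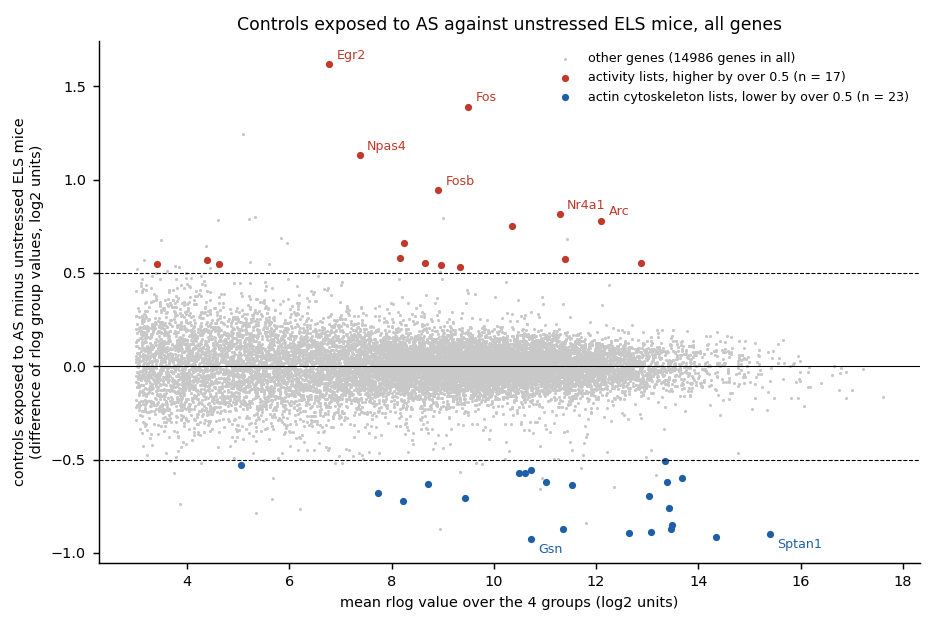
Difference between the rlog values of controls exposed to AS and unstressed ELS mice (vertical axis, log2 units) against the mean rlog value over the 4 groups (horizontal axis, log2 units), with 1 point per gene for 14986 genes and dashed lines at 0.5 in both directions. Red points are the 17 activity-regulated genes higher by over 0.5, with Egr2 at the top at 1.62, and blue points are the 23 actin cytoskeleton genes lower by over 0.5, with Gsn at the bottom at −0.92.

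The spread of the difference depended on the level of the gene. It was 0.18 (SD across genes) among the 3107 genes with a mean from 3 to 6, 0.13 among 4660 genes from 6 to 9, 0.10 among 5906 genes from 9 to 12 and 0.12 among 1313 genes above that. Of the 38 genes that were higher in controls exposed to AS, 21 had a mean under 6, and of the 44 that were lower, 9 did. The top level class held 2 of the higher genes and 13 of the lower ones.

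Egr2 showed the largest difference of all genes. This zinc finger transcription factor of the Egr family lies on chromosome 10 (67535475 to 67542188, plus strand, GRCm38). It had an rlog value of 7.58 in controls exposed to AS, 5.96 in unstressed ELS mice, 7.46 in ELS + AS mice and 6.13 in unstressed controls. Both swum groups therefore lay high and both unstressed groups low, and the difference of 1.62 corresponds to a 3.07-fold ratio on the shrunken rlog scale. Fos, a subunit of the AP-1 transcription factor on chromosome 12 (85473890 to 85477273, plus strand), followed with 10.17 in controls exposed to AS, 8.78 in unstressed ELS mice, 10.10 in ELS + AS mice and 8.94 in unstressed controls. Its difference was 1.39, or 2.62-fold. Nr4a1, an orphan nuclear receptor encoded on chromosome 15 (101254269 to 101274795, plus strand), had 11.60 in controls exposed to AS, 10.79 in unstressed ELS mice, 11.64 in ELS + AS mice and 11.12 in unstressed controls, a difference of 0.81.

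The promoters of these 3 genes are printed because they represent the Egr, AP-1 and Nr4a families at the top of the comparison. Each sequence covers the 250 bases before the RefSeq transcription start on the coding strand in GRCm38.p6: chr10:67537619-67537868 (plus strand) for Egr2, chr12:85473640-85473889 (plus strand) for Fos and chr15:101266596-101266845 (plus strand) for Nr4a1. Capitals mark TGACG, the core of the cAMP response element (CRE), which reads CGTCA on the other strand, and in Egr2 also a CArG box, the sequence recognized by serum response factor. For Egr2, which has 5 annotated starts, the window with the most marked motifs is shown.
Egr2: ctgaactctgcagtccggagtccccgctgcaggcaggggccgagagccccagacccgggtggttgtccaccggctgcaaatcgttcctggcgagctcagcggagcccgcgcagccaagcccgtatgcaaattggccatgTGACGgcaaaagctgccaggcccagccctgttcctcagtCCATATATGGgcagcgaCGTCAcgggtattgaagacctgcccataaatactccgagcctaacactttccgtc
Fos: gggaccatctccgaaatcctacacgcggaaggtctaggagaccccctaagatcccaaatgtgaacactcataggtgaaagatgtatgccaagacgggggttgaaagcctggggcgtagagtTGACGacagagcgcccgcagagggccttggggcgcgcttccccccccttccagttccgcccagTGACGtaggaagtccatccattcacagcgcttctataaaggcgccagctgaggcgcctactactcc
Nr4a1: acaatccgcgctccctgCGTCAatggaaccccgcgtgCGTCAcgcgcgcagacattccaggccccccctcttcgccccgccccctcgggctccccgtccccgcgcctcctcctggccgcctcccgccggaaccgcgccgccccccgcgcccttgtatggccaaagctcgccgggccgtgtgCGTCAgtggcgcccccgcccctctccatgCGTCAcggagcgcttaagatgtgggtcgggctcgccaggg
The Egr2 window held 2 CRE cores and 1 CArG box, the Fos window 2 CRE cores and the Nr4a1 window 4 CRE cores. None of the 3 held the whole CRE, TGACGTCA, which contains the CRE core on both strands. The same 250 bases were searched for every gene with an entry in the RefSeq promoter table, and a gene with several starts was counted once. Among the 17 activity-regulated genes higher by over 0.5, 12 matched the table, with 18 starts. The CRE core was found before a start of 12 of the 12 genes, against 5347 of 27025 genes in all (19.8%). The whole CRE was found in 3 of them, Btg2, Dusp1 and Maff (25% against 1.77% of all genes), and the CArG box in 2, Dusp5 and Egr2 (16.7% against 1.62%). Among the actin cytoskeleton genes lower by over 0.5, 21 of 23 matched with 32 starts, and 6 of these genes (28.6%) held the CRE core, 0 the whole CRE and 1 (4.76%) a CArG box. Counted by window, the CRE core stood before 15 of the 18 starts of the activity-regulated genes (83.3%), against 5836 of 32851 in all (17.8%). These genes were chosen by list and by difference, and listed genes not beyond 0.5 were not set beside them. The 27025 genes were not limited to those compared here, so the shares are descriptions only. A match describes letters in a window and was not tested for use.

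The AP-1 list had 8 genes that passed the filter, and all 8 had the higher value in controls exposed to AS, with a median difference of 0.18 against 0.00 for all genes (0.11 with no filter on the mean). Fosb, a paralog of Fos that forms AP-1 with Jun proteins, had 9.45 in controls exposed to AS, 8.51 in unstressed ELS mice, 9.31 in ELS + AS mice and 8.38 in unstressed controls (difference 0.94). Junb, a Jun family member, had 11.66 in controls exposed to AS, 11.08 in unstressed ELS mice, 11.71 in ELS + AS mice and 11.11 in unstressed controls (difference 0.57). In both genes the swum groups stood above both unstressed groups. The other AP-1 members differed less, with 0.22 for Fosl2, 0.13 for Batf3 and 0.05 each for Jun, Jund and Jdp2. For Jund both single-stress groups stood above unstressed controls, with 12.68 in controls exposed to AS, 12.62 in unstressed ELS mice, 12.61 in ELS + AS mice and 12.36 in unstressed controls.

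All 6 genes of the Egr and Nab list were higher as well, with a median of 0.32. Egr4 had 10.73 in controls exposed to AS, 9.98 in unstressed ELS mice, 10.75 in ELS + AS mice and 9.95 in unstressed controls (difference 0.75). Egr1, a regulator of synaptic plasticity genes, had 13.20 in controls exposed to AS, 12.65 in unstressed ELS mice, 13.22 in ELS + AS mice and 12.43 in unstressed controls (difference 0.55). Relative to unstressed controls, unstressed ELS mice thus differed by 0.22 for Egr1 and by −0.17 for Egr2. Egr3 differed by 0.08, and the corepressors Nab2 and Nab1, which bind Egr proteins and limit their activity, by 0.08 and 0.04. The Nr4a receptors were all higher, at 0.81 for Nr4a1, 0.16 for Nr4a2 and 0.12 for Nr4a3.

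**Figure D2:**
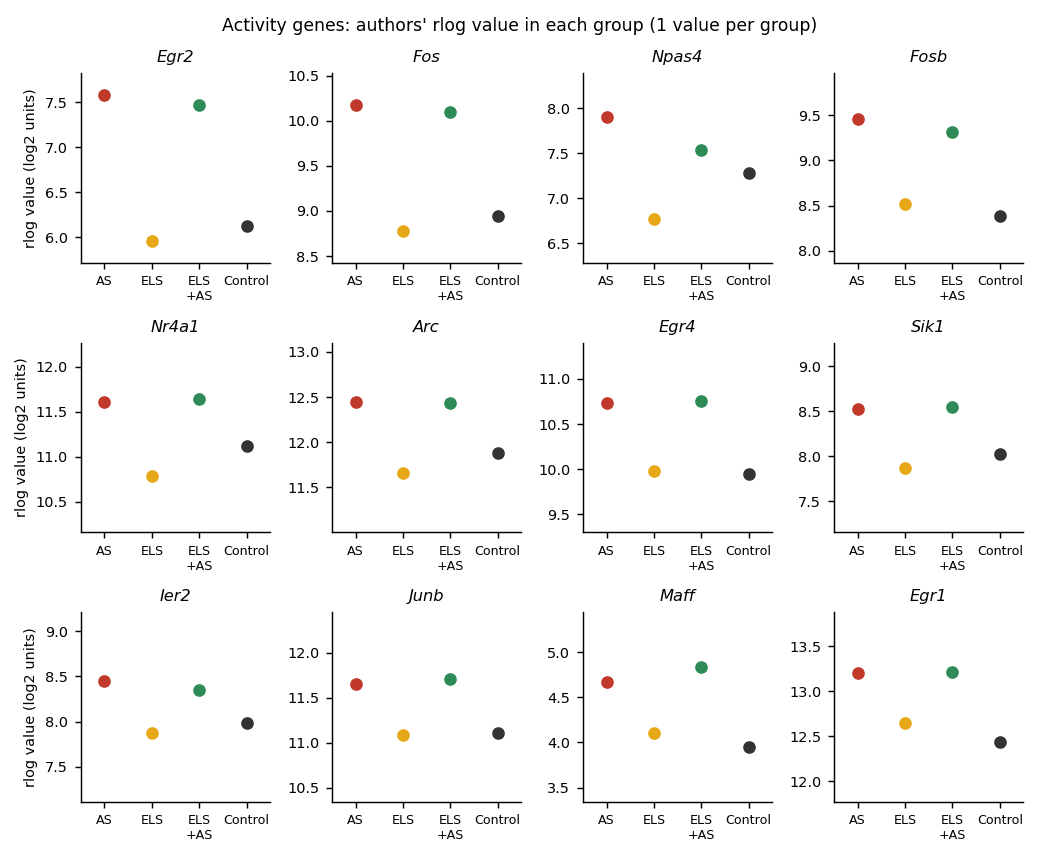
rlog value in log2 units (vertical axes, 1 panel per gene, each with its own range) in controls exposed to AS, unstressed ELS mice, ELS mice exposed to AS and unstressed controls, with 1 point per group, for the 12 activity-regulated genes of largest difference. In all 12 panels both swum groups lie above both unstressed groups, and in Npas4 the value was 7.90 in controls exposed to AS, 6.77 in unstressed ELS mice, 7.53 in ELS + AS mice and 7.28 in unstressed controls.

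Among 30 other immediate early transcription factors, 22 were higher and 8 lower in controls exposed to AS, with a median of 0.08. Npas4, a neuron-specific factor that responds to calcium influx and organizes inhibitory synapses, had 7.90 in controls exposed to AS, 6.77 in unstressed ELS mice, 7.53 in ELS + AS mice and 7.28 in unstressed controls (difference 1.13, 2.19-fold). Relative to unstressed controls, controls exposed to AS differed by 0.62 and unstressed ELS mice by −0.51, so both entered the difference. Ier2, a nuclear protein of the early response, differed by 0.58 (8.45 in controls exposed to AS and 7.87 in unstressed ELS mice). Maff, a small Maf protein, differed by 0.57. Atf3, a stress-induced member of the ATF family, differed by 0.55 (4.92 in controls exposed to AS and 4.37 in unstressed ELS mice). At the other end of this list were Id3, an inhibitor of basic helix-loop-helix factors, with 8.83 in controls exposed to AS and 9.20 in unstressed ELS mice, and Klf6, a Krüppel-like factor, with 9.12 in controls exposed to AS and 9.43 in unstressed ELS mice.

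Of 47 activity-regulated effectors, 37 were higher and 10 lower, with a median of 0.11. Arc, whose product drives removal of AMPA receptors from synapses, had 12.44 in controls exposed to AS, 11.66 in unstressed ELS mice, 12.44 in ELS + AS mice and 11.88 in unstressed controls (difference 0.78, 1.72-fold). Arl4d, a small GTP-binding protein, differed by 0.47. Lower values were seen for Pdyn, the precursor of dynorphin, with 6.38 in controls exposed to AS, 6.70 in unstressed ELS mice, 7.07 in ELS + AS mice and 6.74 in unstressed controls, and for Baz1a, a chromatin remodeling subunit, at −0.35. Bdnf, a growth factor of hippocampal neurons, differed by 0.03, with 10.20 in controls exposed to AS and 10.17 in unstressed ELS mice.

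Of 8 Gadd45 and Btg genes 5 were higher (median 0.12), of 17 dual-specificity phosphatases and Sprouty inhibitors 12 (median 0.05), of 16 CREB factors, coactivators and SIK kinases 12 (median 0.04), and of 10 neurotrophins and their receptors 5 (median 0.02). The growth arrest genes Gadd45g and Gadd45b differed by 0.41 and 0.34, and Btg2, an antiproliferative cofactor, by 0.54 (9.23 in controls exposed to AS and 8.69 in unstressed ELS mice). Sik1, a kinase that holds CREB coactivators in the cytoplasm, had 8.53 in controls exposed to AS, 7.87 in unstressed ELS mice, 8.55 in ELS + AS mice and 8.03 in unstressed controls (difference 0.66). For the MAP kinase phosphatases Dusp5 and Dusp1, unstressed ELS mice stood furthest from unstressed controls. Dusp5 had 8.84 in controls exposed to AS, 8.29 in unstressed ELS mice, 8.86 in ELS + AS mice and 8.65 in unstressed controls. Dusp1 had 9.48 in controls exposed to AS, 8.95 in unstressed ELS mice, 9.53 in ELS + AS mice and 9.36 in unstressed controls. Relative to unstressed controls, Dusp5 differed by 0.19 in controls exposed to AS and by −0.36 in unstressed ELS mice, and Dusp1 by 0.11 in controls exposed to AS and by −0.42 in unstressed ELS mice. In both, the lower value of unstressed ELS mice made up more of the difference. Dusp2 and Dusp9, from the same phosphatase family, were lower at −0.38 and −0.27. Of the neurotrophins, Ntf5 differed by 0.55 at a low level (3.72 in controls exposed to AS and 3.17 in unstressed ELS mice) and Ntf3 by −0.43.

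Over the 9 activity lists together, 141 genes passed the filter, of which 106 were higher and 35 lower, with a median of 0.08. Beyond 0.25, 37 were higher and 8 lower, and beyond 0.5, 17 were higher and 0 lower. Over all genes, 2.55% were higher and 2.73% lower beyond 0.25, and 0.254% and 0.294% beyond 0.5. In all 17, the value of ELS + AS mice was nearer to that of controls exposed to AS than to that of unstressed ELS mice, which held for 44.7% of all genes. The choice of the 17 by 2 of these values bears on such counts. The 17 are called activity-regulated by membership of the lists. They include Ntf5, which entered through the list of neurotrophins and receptors at a low level (mean 3.42). Controls exposed to AS had the highest value of the 4 groups in 8 of the 17. Relative to unstressed controls, the 17 genes had a median of 0.56 in controls exposed to AS (range 0.11 to 1.45), −0.16 in unstressed ELS mice (range −0.51 to 0.26) and 0.56 in ELS + AS mice (range 0.12 to 1.33). Unstressed ELS mice were below unstressed controls in 12 of the 17.

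The 21 other genes higher by over 0.5 included several with low values or with close copies in the genome. Rpl14-ps1, a processed pseudogene of a ribosomal protein gene on chromosome 7, had 5.49 in controls exposed to AS, 4.24 in unstressed ELS mice, 5.23 in ELS + AS mice and 5.40 in unstressed controls (difference 1.25). Its reads can be shared with Rpl14, whose values were 12.42 in controls exposed to AS and 12.43 in unstressed ELS mice, so the value is uncertain. BC002163, another processed pseudogene, had 9.12 in controls exposed to AS, 8.32 in unstressed ELS mice, 10.12 in ELS + AS mice and 8.50 in unstressed controls. Gm38431 (difference 0.79) and Zglp1 (0.66) are neighbouring genes on the minus strand of chromosome 9. Rsrp1, an arginine- and serine-rich protein, had 11.80 in controls exposed to AS, 11.12 in unstressed ELS mice, 11.69 in ELS + AS mice and 11.13 in unstressed controls, with both swum groups above both unstressed groups, as in Fosb. Gem, a small GTPase that is itself induced by activity but was in none of the lists, differed by 0.55. Irs2, an adaptor of the insulin receptor, had 9.03 in controls exposed to AS, 8.52 in unstressed ELS mice, 8.87 in ELS + AS mice and 9.39 in unstressed controls, so that unstressed controls had the highest value. Gem and Irs2 were named after their values were seen.

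Matrix genes formed a further part of the higher genes. Col6a1, a chain of collagen VI, had 5.83 in controls exposed to AS, 5.03 in unstressed ELS mice, 4.79 in ELS + AS mice and 5.65 in unstressed controls (difference 0.80). Col11a1 and Col5a2, chains of fibrillar collagens, were higher at low values. Col11a1 had 4.97 in controls exposed to AS, 4.40 in unstressed ELS mice, 3.85 in ELS + AS mice and 4.51 in unstressed controls. Col5a2 had 4.23 in controls exposed to AS, 3.70 in unstressed ELS mice, 3.38 in ELS + AS mice and 3.72 in unstressed controls. In all 3 of these collagens ELS + AS mice had the lowest value of the 4 groups, unlike in the immediate early genes. Of 31 collagens that passed the filter, 21 were higher and 10 lower, with a median of 0.13. Beyond 0.25, 12 were higher and 0 lower, against 2.55% and 2.73% of all genes. The list had a mean level of 5.10 in controls exposed to AS, within the level class (3 to 6) of widest spread. Other matrix proteins had a median of 0.03, with 16 of 25 higher and with Fbln2 (fibulin 2, 0.53) and Ssc5d (0.52) beyond 0.5. Both lists were assembled after the values had been seen.

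At the lower end, the actin-severing and capping protein gelsolin (Gsn, chromosome 2, 35256380 to 35307892, plus strand) had 10.06 in controls exposed to AS, 10.99 in unstressed ELS mice, 10.94 in ELS + AS mice and 10.91 in unstressed controls. Its difference was −0.92, a 0.53-fold ratio, and the other 3 groups lay within 0.08 of each other. The alpha-spectrin Sptan1 (chromosome 2, 29965560 to 30031451, plus strand), the partner of the beta-spectrins in brain, had 14.80 in controls exposed to AS, 15.70 in unstressed ELS mice, 15.56 in ELS + AS mice and 15.56 in unstressed controls. In both genes controls exposed to AS stood alone, below all the other groups.

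The actin families were assembled after these values had been seen, so their counts and medians are descriptions only. All 5 spectrins that passed the filter were lower in controls exposed to AS, with a median of −0.89 against 0.00 for all genes. Sptb had 12.00 in controls exposed to AS, 12.90 in unstressed ELS mice, 12.82 in ELS + AS mice and 12.83 in unstressed controls. Sptbn1 differed by −0.60 and Sptbn4, the spectrin of axon initial segments and nodes, by −0.32. All 4 alpha-actinins, which crosslink actin filaments, were lower too, with a median of −0.60: Actn4 −0.64, Actn2 −0.63, Actn1 −0.56 and Actn3 −0.53. For Actn2, which is concentrated in dendritic spines, the values were 8.26 in controls exposed to AS, 8.90 in unstressed ELS mice, 8.71 in ELS + AS mice and 8.95 in unstressed controls. Gelsolin relatives and actin bundlers were lower in 9 of 13, with a median of −0.34, and included the bundler taperin (Tprn, −0.71). Ank2, the ankyrin that ties membrane proteins to spectrin, differed by −0.51.

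Proteins that hold actin in dendritic spines had a median of −0.41, with 11 of 12 lower. Ppp1r9a (neurabin 1), an actin-binding scaffold of protein phosphatase 1, had 12.52 in controls exposed to AS, 13.41 in unstressed ELS mice, 13.16 in ELS + AS mice and 13.20 in unstressed controls (−0.89). Itpka, an inositol trisphosphate kinase that bundles actin, had 12.77 in controls exposed to AS, 13.64 in unstressed ELS mice, 13.83 in ELS + AS mice and 13.60 in unstressed controls (−0.87). Dbn1 (drebrin), which stabilizes spine actin, had 12.93 in controls exposed to AS, 13.78 in unstressed ELS mice, 13.65 in ELS + AS mice and 13.59 in unstressed controls (−0.85). Ppp1r9b (spinophilin), the close relative of neurabin, differed by −0.46. Relative to unstressed controls, it differed by −0.14 in controls exposed to AS and by 0.32 in unstressed ELS mice. Cortactin (Cttn) and synaptopodin (Synpo) differed by 0.00 and 0.01.

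**Figure D3:**
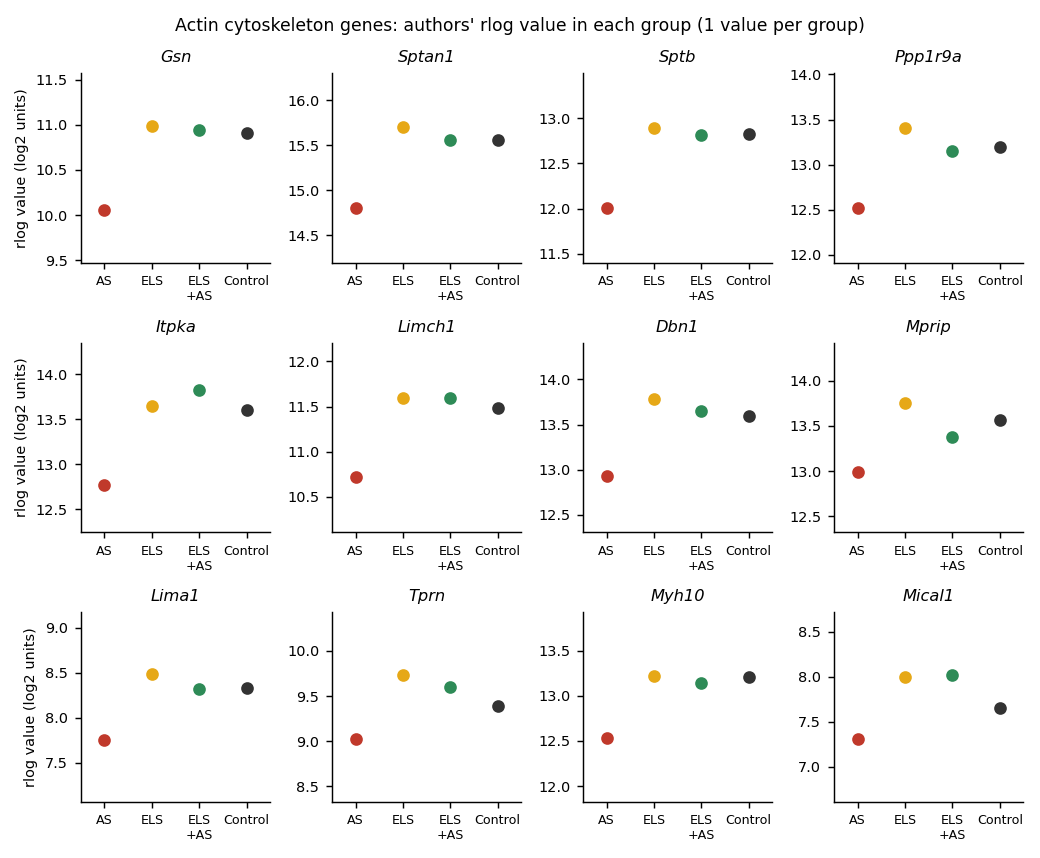
rlog value in log2 units (vertical axes, 1 panel per gene, each with its own range) in controls exposed to AS, unstressed ELS mice, ELS mice exposed to AS and unstressed controls, with 1 point per group, for 12 of the actin cytoskeleton genes of lowest difference. In each panel controls exposed to AS have the lowest point, as for Gsn with 10.06 in controls exposed to AS, 10.99 in unstressed ELS mice, 10.94 in ELS + AS mice and 10.91 in unstressed controls.

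Motor proteins of actin were mixed. Of 13 class II myosin heavy chains, 9 were lower with a median of −0.07, and the non-muscle chains Myh10 (−0.69), Myh14 (−0.57) and Myh9 (−0.50) stood lowest. Muscle chains lay on both sides, from Myh11 of smooth muscle at −0.35 to Myh4 at 0.36. Over chains with a mean of at least 6 the median was −0.35. Myh10 had 12.53 in controls exposed to AS, 13.22 in unstressed ELS mice, 13.15 in ELS + AS mice and 13.21 in unstressed controls. Among 19 unconventional myosins 14 were lower, with a median of −0.15, led by the cargo motors Myo6 and Myo5a at −0.62 each. Of the myosin regulators, Mprip, which targets myosin phosphatase to actin, had 12.99 in controls exposed to AS, 13.75 in unstressed ELS mice, 13.37 in ELS + AS mice and 13.57 in unstressed controls (−0.76). The LIM-domain proteins Limch1 (−0.87) and Lima1 (−0.72) and the actin-oxidizing enzymes Mical1 (−0.68) and Mical3 (−0.57) were the lowest of 19 MICAL and LIM genes, 10 of which were lower and whose median was −0.05, but 0.01 over those with a mean of at least 6.

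The difference did not extend to actin itself. Of the cytoplasmic actins, Actb had 16.13 in controls exposed to AS and 16.24 in unstressed ELS mice, and Actg1 had 15.84 in controls exposed to AS and 15.84 in unstressed ELS mice. Of 46 actins and assembly factors such as cofilin, profilin, formins and the Arp2/3 complex, 28 were lower and 18 higher, with a median of −0.02. Beyond 0.5 there were 0 of them, against 0.254% (higher) and 0.294% (lower) of all genes, so this count does not set the list apart. Smooth muscle actin, Acta2, was the highest of them at 0.47. Tropomyosins and their partners had a median of 0.00 over 12 genes, ankyrins, adducins and the Epb41 family one of −0.02 over 14, and filamins, plakins and utrophin one of −0.27 over 10, with Utrn at −0.41, Macf1 at −0.38 and Flna at 0.31. Outside actin, tubulins and microtubule-associated proteins had a median of −0.01 over 33 genes and intermediate filaments one of 0.03 over 10.

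**Figure D4:**
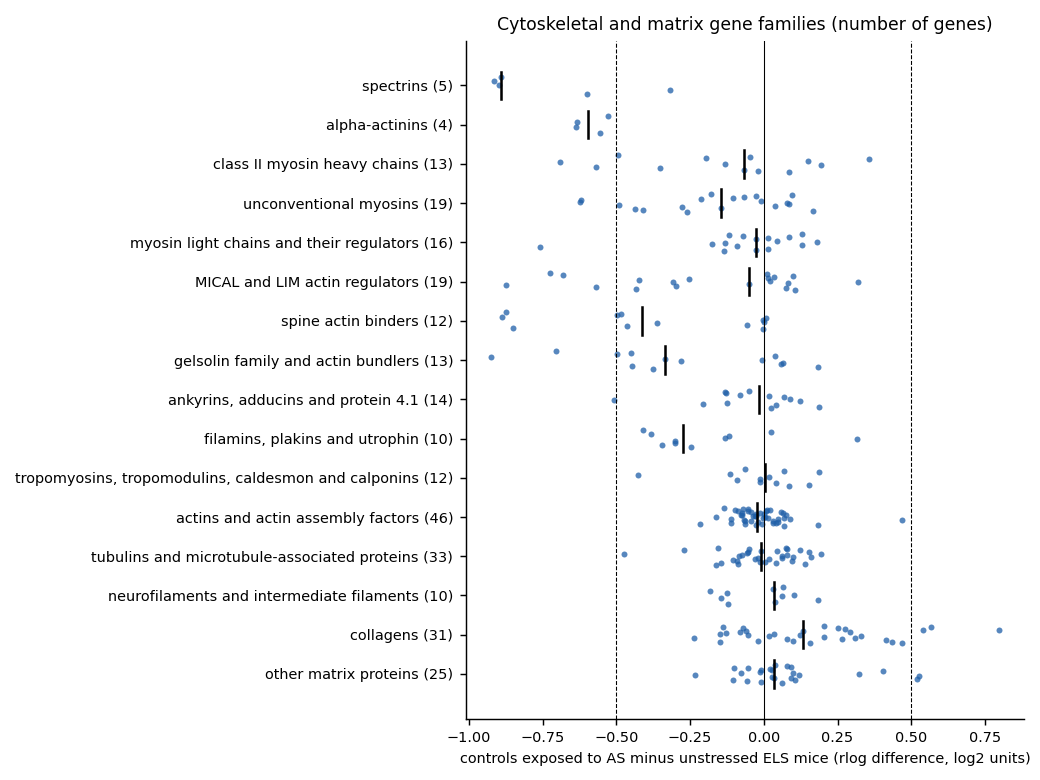
Difference between controls exposed to AS and unstressed ELS mice (horizontal axis, rlog difference in log2 units) for each gene of the cytoskeletal and matrix families, with 1 point per gene, a bar at the family median, 1 row per family and dashed lines at 0.5 in both directions. Spectrins (median −0.89) and alpha-actinins (−0.60) lie wholly below 0, whereas actins and assembly factors (−0.02), tubulins and microtubule-associated proteins (−0.01) and intermediate filaments (0.03) are centred near 0.

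Over the 12 actin families together, 183 genes passed the filter. Of these, 120 were lower and 63 higher, with a median of −0.06. Beyond 0.25, 52 were lower and 4 higher, and beyond 0.5, 23 were lower and 0 higher. Over all genes, 2.73% were lower and 2.55% higher beyond 0.25, and 0.294% and 0.254% beyond 0.5. In all 23, controls exposed to AS had the lowest of the 4 values, against 24.0% of all genes, although choosing genes by a low value in this group favours that count. Relative to unstressed controls, the 23 genes had a median of −0.58 in controls exposed to AS (range −0.88 to −0.28), 0.11 in unstressed ELS mice (range −0.05 to 0.35) and −0.02 in ELS + AS mice (range −0.24 to 0.36). For 22 of the 23, ELS + AS mice were nearer to unstressed ELS mice than to controls exposed to AS, and Mprip, the exception, lay midway between them. Of all 14986 genes, 8283 were nearer to unstressed ELS mice, and the choice of the 23 bears on this count as well. Whether 1 of the libraries of controls exposed to AS carried the low values was not tested, because the table has no value per library.

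The 21 remaining genes lower by over 0.5 had mixed roles. The F-box proteins Fbxo46 and Fbxo34, substrate receptors of ubiquitin ligases, differed by −0.87 and −0.84, and Fbxo34 had 11.25 in controls exposed to AS, 12.09 in unstressed ELS mice, 11.95 in ELS + AS mice and 11.96 in unstressed controls. Zfp185, a LIM-domain protein, differed by −0.76, with 5.75 in controls exposed to AS, 6.52 in unstressed ELS mice, 6.05 in ELS + AS mice and 6.50 in unstressed controls. Gas2l3, which links actin to microtubules, and Nexn (nexilin), an actin-filament binder, also belong to this set without being in a list, at −0.71 and −0.50. Gm10653, a transcribed pseudogene, had 5.21 in controls exposed to AS, 6.00 in unstressed ELS mice, 4.99 in ELS + AS mice and 5.18 in unstressed controls, so only unstressed ELS mice stood apart. In Pttg1 (securin) unstressed ELS mice were again the highest, with 9.63 in controls exposed to AS, 10.15 in unstressed ELS mice, 9.58 in ELS + AS mice and 9.74 in unstressed controls. Over all 44 lower genes, controls exposed to AS had the lowest value in 41, against 24.0% of all genes. ELS + AS mice were nearer to unstressed ELS mice in 38, against 8283 of all 14986 genes. Choosing the 44 by a low value in controls exposed to AS relative to unstressed ELS mice favours both counts. Gas2l3 and Pttg1 were named after their values were seen.

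Of 28 glucocorticoid-responsive genes, 20 were higher and 8 lower in controls exposed to AS, with a median of 0.08. Beyond 0.25, 7 were higher and 1 lower, against 2.55% and 2.73% of all genes, and the highest was Dusp1 at 0.53, which is also in an activity list. Per1, a clock gene with glucocorticoid response elements, had 11.08 in controls exposed to AS, 10.71 in unstressed ELS mice, 11.13 in ELS + AS mice and 10.86 in unstressed controls (0.37). Tiparp differed by 0.34, Nfkbia (the NF-κB inhibitor) by −0.21 and Mertk by −0.27. The glucocorticoid receptor gene Nr3c1 had 11.05 in controls exposed to AS and 11.17 in unstressed ELS mice, and the mineralocorticoid receptor gene Nr3c2 had 11.29 in controls exposed to AS, 11.32 in unstressed ELS mice, 11.42 in ELS + AS mice and 11.90 in unstressed controls. Nr3c2 thus differed by −0.02 between the single stressors, although it differed from unstressed controls by −0.61 in controls exposed to AS and by −0.59 in unstressed ELS mice. The metallothioneins Mt1 and Mt2, which bind zinc and respond to glucocorticoids, differed by 0.11 each. Mt1 had 12.29 in controls exposed to AS, 12.18 in unstressed ELS mice, 12.18 in ELS + AS mice and 11.37 in unstressed controls, so that only unstressed controls stood apart. Of the stress peptides, Penk (proenkephalin) differed by 0.37, Crh by 0.22 and Adcyap1 (PACAP) by −0.31.

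Chromatin genes and most receptor lists lay close to 0. Of 110 chromatin regulators in 5 lists, 67 were higher and 43 lower, and the median was 0.02. Beyond 0.5 there were 0 of them. Of all genes only 0.254% were higher and 0.294% lower by that much, so this count does not set the list apart. Kdm6b, an H3K27 demethylase, was the highest at 0.38 (9.84 in controls exposed to AS and 9.46 in unstressed ELS mice), and the H3K9 regulators Setdb1, a methyltransferase, and Kdm4c, a demethylase, differed by −0.20 and −0.22. For Setdb1 the values were 9.20 in controls exposed to AS, 9.40 in unstressed ELS mice, 9.48 in ELS + AS mice and 9.62 in unstressed controls. Of 51 glutamate and GABA receptor genes, 28 were higher and 23 lower with a median of 0.02. The 6 NMDA receptor subunits stood to the higher side, with 5 higher and a median of 0.11. Grin2a, an NMDA receptor subunit, had 7.34 in controls exposed to AS, 7.14 in unstressed ELS mice, 7.31 in ELS + AS mice and 7.76 in unstressed controls. The GABA-A subunit Gabrg1, at −0.45, and the NMDA subunit Grin2c, at −0.31, were the lowest members.

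Marker genes of cell types are given beside the label of the cells. The sample records list no unpurified fraction, so enrichment for CA3 neurons was not tested. Gprin3, whose promoter drives the tag, had 6.92 in controls exposed to AS, 6.70 in unstressed ELS mice, 6.73 in ELS + AS mice and 7.47 in unstressed controls. All 16 markers of CA3 and CA2 pyramidal cells passed the filter, with a median difference of 0.04 and a range of −0.05 to 0.22, and Grik4, a kainate receptor subunit of CA3, had 9.84 in controls exposed to AS and 9.64 in unstressed ELS mice. Markers of other cells were also present in every group, among them Mog of oligodendrocytes, with 8.29 in controls exposed to AS, 8.63 in unstressed ELS mice, 9.09 in ELS + AS mice and 8.67 in unstressed controls.

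Some of these marker lists moved with the groups. Of 22 oligodendrocyte markers, 19 were lower in controls exposed to AS, with a median difference of −0.21. Beyond 0.25, 10 were lower, against 2.73% of all genes. Fa2h differed by −0.46 and Mal by −0.34, but Mbp, the myelin basic protein gene, by 0.02. The median level of this list was 9.54 in controls exposed to AS, 9.80 in unstressed ELS mice, 10.19 in ELS + AS mice and 9.91 in unstressed controls. Dentate granule cell markers were lower in 12 of 14 with a median of −0.15, led by Trpc6 at −0.48, and microglia markers in 17 of 20 with a median of −0.10. Astrocyte markers had a median of −0.08, with 13 of 20 lower. Choroid plexus and ependymal markers were higher in 12 of 13 with a median of 0.13, including Folr1 at 0.50 and Ttr, the transthyretin gene, at 0.13. No member of these lists was lower by over 0.5, against 0.294% of all genes, so this count does not set them apart. The part of other cells in the actin or matrix differences was not tested.

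**Figure D5:**
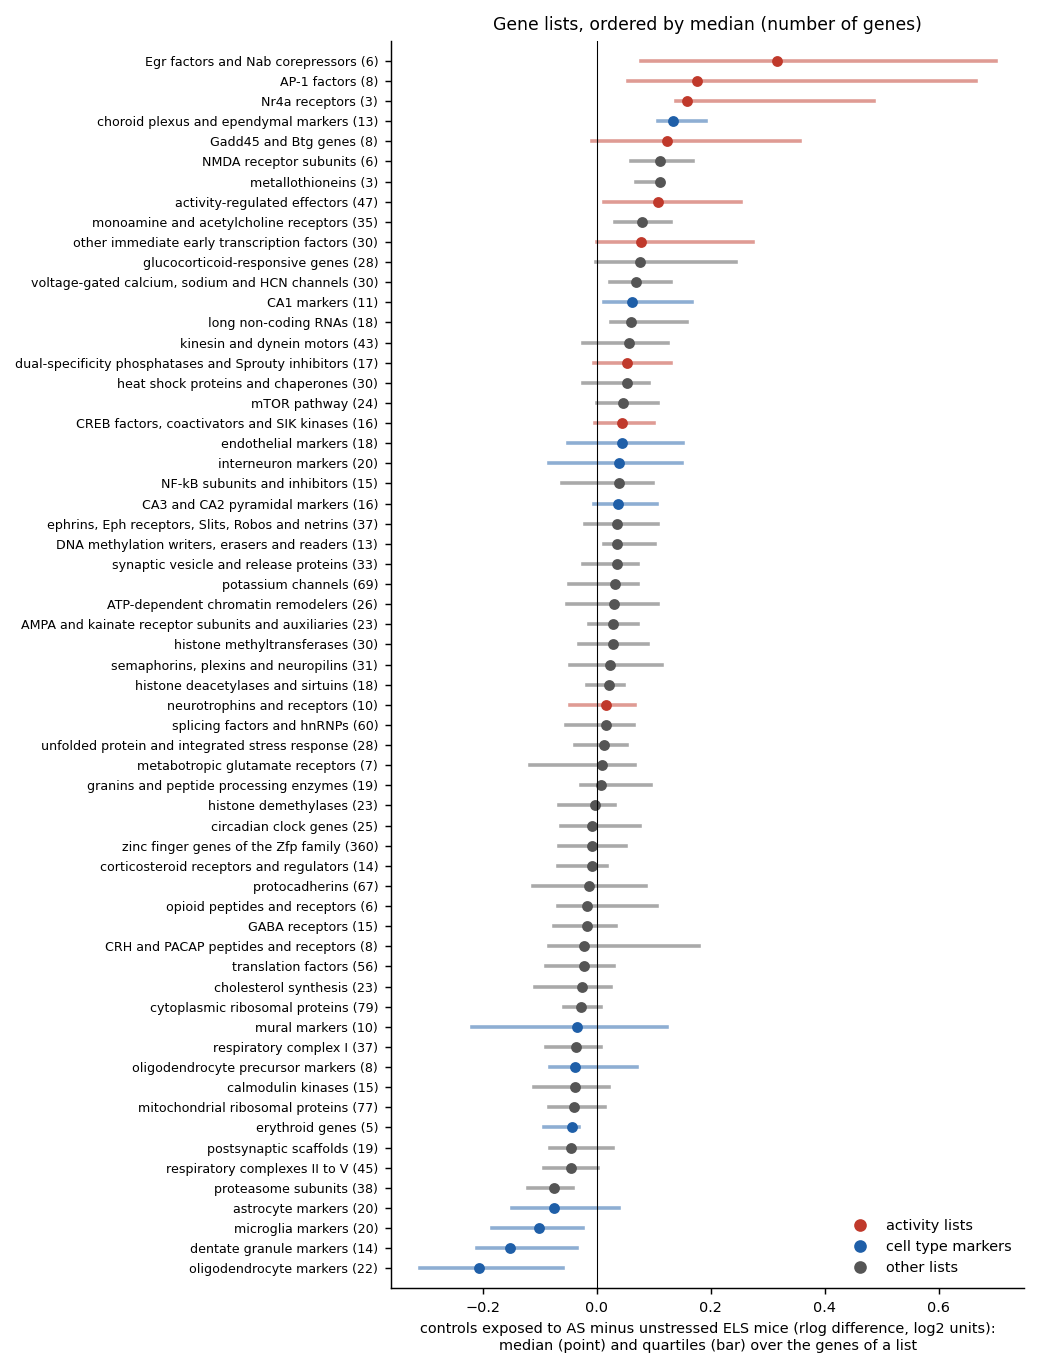
Median (points) and quartiles (bars) of the difference between controls exposed to AS and unstressed ELS mice (horizontal axis, rlog difference in log2 units) for 61 gene lists, ordered by median, with the number of genes in parentheses. Red marks activity lists, blue cell type markers and grey the others, and the Egr and Nab list is at the top (0.32) and oligodendrocyte markers at the bottom (−0.21).

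Among the 61 lists shown in the plot of list medians, 50 had a median within 0.1 of 0, 8 had one above 0.1 and 3 one below −0.1. Cytoplasmic ribosomal proteins were lower in 54 of 79 with a median of −0.03, respiratory complexes II to V in 33 of 45 with a median of −0.05 and proteasome subunits in 32 of 38 with a median of −0.07. After removal of the transcript length trend these medians were −0.001, −0.02 and −0.06, in that order. Each of these lists had 0 genes beyond 0.5, as had 47 of the 61 lists in all. Of all genes only 0.254% were higher and 0.294% lower by that much, so these counts do not set the lists apart. Circadian clock genes had a median of −0.01 over 25 genes and heat shock proteins and chaperones one of 0.05 over 30.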

How the data were processed

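By the study's methods, reads were quality-filtered and mapped to mm10 with Rsubread, transcripts were quantified in Salmon, and counts per gene came from tximport. The authors deposited log2-scale values, the rlog of DESeq2, which scales for library size and shrinks differences of genes with few reads, with 1 column for each of the 4 groups. The methods name a limma batch correction for rlog values in heatmaps, and whether the table includes it, how libraries were combined and the tool versions are not given in the sources used here.

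Of 20196 rows, 25 whose symbols had become dates were left out, and 14986 genes with a mean of at least 3 were used. The group value of unstressed ELS mice was subtracted from that of controls exposed to AS, and genes were counted beyond 0.5. With 1 value per group there was no test and no depth, and 0 columns were unmapped. Lists were described by counts and medians. The members and lists were chosen with earlier results of these data known, and the actin, other cytoskeletal, collagen and matrix lists after the values of this comparison had been seen. Named genes were the 15 highest and 15 lowest, up to 3 members of each list at each end, all AP-1, Egr, Nab and Nr4a genes, Gprin3 and the genes next to the limits, and any others named were chosen after their values were seen. Some genes that the rule would name are not reported here. Gene positions are from GENCODE M21 (GRCm38) and promoter sequences from RefSeq (GRCm38.p6), searched on both strands. Alternatives were other limits, filters and list summaries, centring, removal of a transcript length trend (lengths matched for 99.3% of genes) and leaving out the activity or actin genes. Computation was tested on simulated data and used Python 3.11.15, pandas 2.3.3 and numpy 2.4.6.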

Additional observations from a re-analysis of the deposited data

How the results depend on the processing

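The number of genes beyond a limit followed the limit. Beyond 0.25, 382 genes were higher and 409 lower in controls exposed to AS, and beyond 1, 4 were higher and 0 lower. With a mean of at least 6, 17 genes were higher. Without the activity lists 21 genes were higher, and without the actin lists 21 were lower, both left out after the data had been seen. Other settings kept the counts within 1.5 times, at 44 higher and 49 lower with no filter on the mean, 39 and 43 after centring, 39 and 47 after removal of the length trend, and 35 lower with a mean of at least 6. Centring moved every difference by the same amount, which was under 0.05, so the 364 named differences all moved alike. None of the 362 with a transcript length moved by 0.05 or more after removal of the length trend. That limit is larger than the medians of some lists, such as cytoplasmic ribosomal proteins, whose median went from −0.03 to −0.001. Of 81 list medians, 13 moved by at least 0.05 when the mean replaced the median, 6 with a mean of at least 6 and 4 with no filter. With a mean of at least 6, the median of MICAL and LIM genes turned to 0.01, that of endothelial markers to −0.06 and that of opioid genes to 0.05, while class II myosin heavy chains had −0.35 and mural markers −0.10. As means, AP-1 factors had 0.43, Egr and Nab genes 0.52, Nr4a receptors 0.36, other immediate early transcription factors 0.15, the activity lists together 0.16, NMDA subunits 0.06, class II myosin heavy chains −0.14, MICAL and LIM genes −0.20 and the actin families together −0.15. With no filter, AP-1 factors had 0.11 and unconventional myosins −0.07. No other moved median differed by over 1.5 times. No paired analysis was possible because the table holds 1 value per group and none per library, and for the same reason no library could be left out. The table gives no spread between libraries, so neither the size of a difference nor its direction can be set against replicate error. Low values are the least certain, since the SD across genes was 0.18 for means from 3 to 6, against 0.10 from 9 to 12.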

Other observations

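Of 30 voltage-gated calcium, sodium and HCN channel genes, 24 had the higher value in controls exposed to AS (median difference from unstressed ELS mice 0.07). The same held for 43 of 69 potassium channel genes (median 0.03) and 27 of 35 monoamine and acetylcholine receptor genes (median 0.08). Beyond 0.25, 0 potassium channel genes were higher and 2 lower, against 2.55% and 2.73% of all genes. Of 43 kinesin and dynein motor genes 29 were higher (median 0.06). Dync1h1, the heavy chain of cytoplasmic dynein, had 12.60 in controls exposed to AS, 12.16 in unstressed ELS mice, 11.69 in ELS + AS mice and 12.53 in unstressed controls.

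Long non-coding RNAs were higher in 15 of 18 (median 0.06). Malat1, a nuclear RNA of speckles, had 10.78 in controls exposed to AS, 10.33 in unstressed ELS mice, 9.93 in ELS + AS mice and 9.92 in unstressed controls. Mirg, a transcript of the imprinted Dlk1-Dio3 region, had 5.71 in controls exposed to AS, 5.15 in unstressed ELS mice, 4.93 in ELS + AS mice and 5.16 in unstressed controls. Srrm2, a splicing coactivator, had 12.42 in controls exposed to AS, 12.09 in unstressed ELS mice, 11.86 in ELS + AS mice and 12.09 in unstressed controls, whereas 60 splicing factors and hnRNPs together had a median of 0.02. Across genes, the difference had a Spearman rho of 0.11 with transcript length, given as a description because genes are not independent. Its Pearson r across genes with the difference between ELS + AS mice and unstressed controls, which shares no group value with it, was −0.09.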
